A study of Mus musculus with 6 samples.

Results

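The core genes of the TGF-β pathway, 3 ligands, 2 receptors and 5 SMADs, were examined in the RNA of H22 tumours. They were taken by gene symbol (Tgfb1, Tgfb2, Tgfb3, Tgfbr1, Tgfbr2, Smad2, Smad3, Smad4, Smad6 and Smad7), which gave 10 of the 21720 genes of the deposited table, and all 10 passed the filter on low counts. H22 is a mouse hepatocellular carcinoma line, and its cells were grown as subcutaneous tumours in female wild-type BALB/c mice that were aged 6 to 8 weeks according to the methods of the study. From a tumour volume of about 50 mm3, the control group received 0.5% carboxymethyl cellulose sodium (CMC-Na, the vehicle) and the luteolin group received luteolin, a plant flavonoid, at 200 mg/kg. Both were given as 0.2 mL by gavage each day for 21 days. Each group gave 3 RNA-seq libraries, and the labels do not say whether each came from an animal of its own, so the p-values measure the spread between these libraries, which may be technical. The comparison addresses which transcripts differed between tumours of mice given luteolin and tumours of mice given vehicle.

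TGF-β ligands are secreted in a latent form and, once released, bring the type II receptor TGFBR2 together with the type I receptor TGFBR1, a kinase. TGFBR1 phosphorylates SMAD2 and SMAD3, which join SMAD4 and enter the nucleus to act on target genes, while SMAD6 and SMAD7 inhibit the pathway. In liver tumours the pathway is known both for restraining the growth of epithelial cells and for promoting fibrosis, invasion and the suppression of immune cells. None of these steps is visible in RNA levels alone.

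Smad3 was lower in the luteolin group than in the control group in all libraries, at 113 ± 17.7 against 227 ± 36.4 CPM, a count scaled to the size of its library (mean ± SD, n = 3 each). Tgfb2 and Tgfbr2 were higher in all luteolin libraries, Tgfb2 at 4.25 ± 0.654 against 1.80 ± 0.620 CPM and Tgfbr2 at 133 ± 26.6 against 87.7 ± 6.49 CPM. The other 7 members overlapped between the groups. At an adjusted p under 0.05 (quasi-likelihood test of edgeR, Benjamini-Hochberg method over all genes tested) 0 of the 10 members were called, where 1.52% of the 14963 genes tested were called, 1.34% higher and 0.187% lower. At an unadjusted p under 0.05 the members held 2 higher and 1 lower gene, and the background was 14% of genes higher and 6.44% lower. The threshold of the study is an unadjusted p under 0.05 with a change of more than 2-fold, which the study applied with DESeq2. Applied here to the edgeR fit, it took 1 higher member, Tgfb2, and 0 lower members, against 11.3% and 1.52% of all genes. In DESeq2 as run here, Smad3 also met it as a lower gene, with a log2 fold change of -1.01. The groups did not overlap in the same 3 members, 2 higher and 1 lower, while 15.9% of all genes were higher and 12.8% lower without overlap. With so few members these counts lie close to the background. The median log2 fold change was 0.06 over the members and -0.01 over all genes tested. An exact permutation test of a single gene cannot give a p below 0.1 with 3 libraries against 3.

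**Figure D1:**
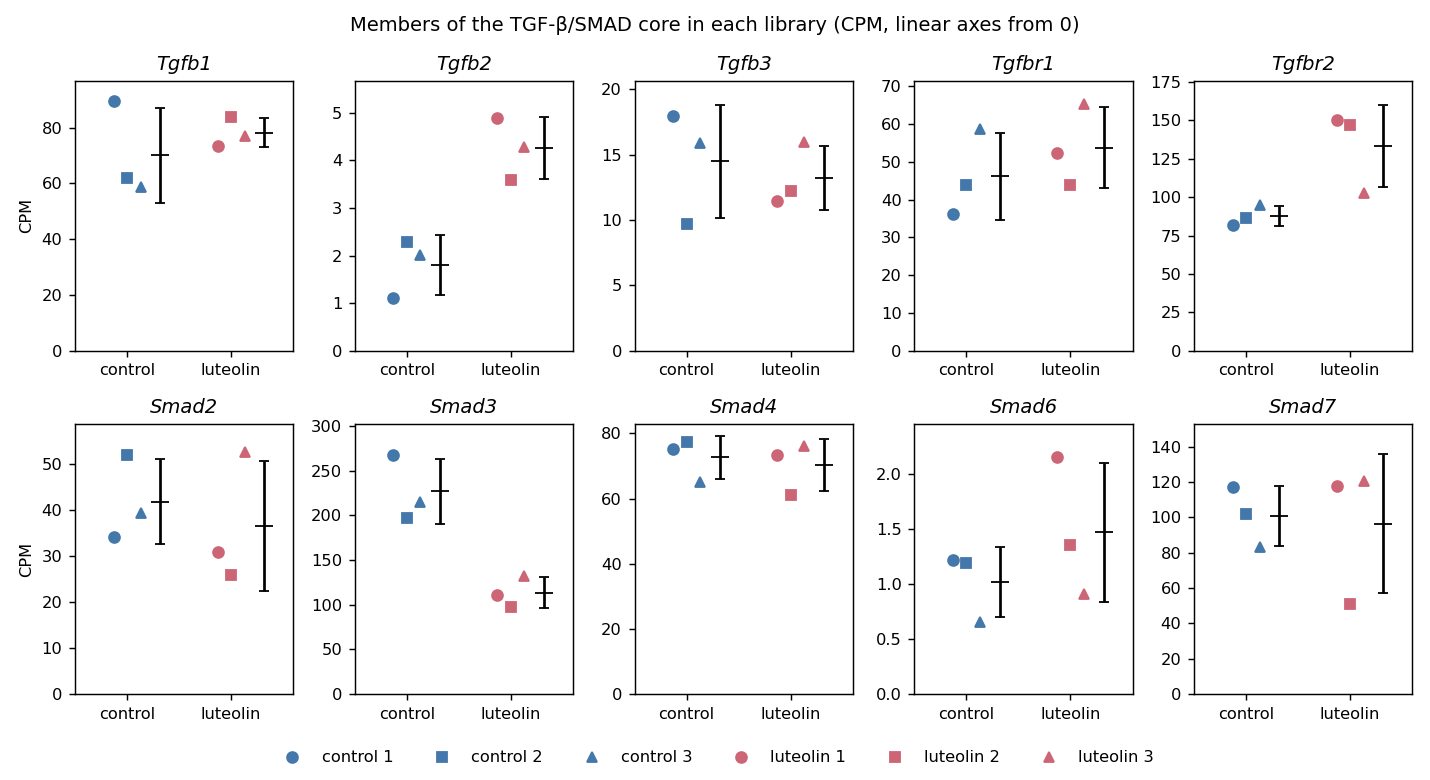
CPM of each of the 10 members in each of the 6 libraries, with 1 panel and 1 linear axis from 0 per gene (blue, control; red, luteolin; circle, square and triangle, replicates 1, 2 and 3; black bar, mean ± SD, n = 3). The groups are separate for Smad3 (97.6 to 132 CPM with luteolin, 197 to 268 in the control group), Tgfb2 and Tgfbr2, and they overlap for the other 7 genes.

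The libraries held 61081637 to 80442954 estimated counts each, and Smad6 and Tgfb2 were the members with the fewest, 42 to 300 in each library. The tumours are bulk tissue, in which fewer cells of a type and less RNA per cell cannot be told apart. Of the hepatoma markers, Krt18 lay at 193 to 266 CPM over all 6 libraries. Alb ran from 0.868 to 133 CPM and Hnf4a, a defining liver factor, from 0 to 0.327 CPM. Afp was lower with luteolin without overlap, at 32.7 to 41.8 against 43.4 to 66.7 CPM. Gpc3 was higher without overlap, at 3.13 to 9.34 against 0.633 to 1.30 CPM. These were the 1 lower and 1 higher of the 9 markers tested, beside 12.8% and 15.9% of all genes. The groups did not overlap in the summed CPM of a marker list, with luteolin above control, for macrophages (2526 to 3847 against 1981 to 2375), T cells (51.3 to 103 against 16.5 to 18.6), B cells (6.63 to 25.1 against 2.70 to 4.90), neutrophils (79.8 to 182 against 19.0 to 22.4), platelets (22.1 to 43.4 against 14.6 to 20.9, where Pf4 was the 1 marker of 4 tested without overlap), fibroblasts (565 to 1070 against 247 to 330) and keratinocytes. Of the markers tested, 7 of 12 for macrophages, 9 of 9 for T cells and 2 of 5 for B cells were higher without overlap. The same held for 4 of 7 neutrophil, 7 of 10 fibroblast and 7 of 9 keratinocyte markers, and 0 in these lists were lower. Lyz2, the leading macrophage marker, overlapped, at 882 to 1461 CPM with luteolin and 946 to 1107 in controls. Keratinocyte markers summed to 391, 9076 and 21.2 CPM in luteolin replicates 1, 2 and 3 and to 14.4 to 18.6 CPM in the control group, where Krt14, Krt5, Krt1, Krt15, Dsg3, Dsg1a and Lor were listed at 0. The sums overlapped between the groups for markers of hepatocytes (276 to 426 with luteolin, 273 to 386 in controls), endothelium (111 to 303, 96.2 to 116), skeletal muscle (270.0 to 1214, 554 to 1198), adipocytes (15.0 to 233, 13.8 to 58.7) and proliferation (1292 to 2100.0, 1861 to 2856). Of the 8 proliferation markers, 2 were lower and 0 higher without overlap (12.8% and 15.9% of all genes). These were Mki67 (352 to 536 CPM with luteolin, 559 to 868 in controls) and Cdk1 (127 to 162, 171 to 227). The other proliferation markers overlapped. Top2a, the most abundant, was at 440 to 919 CPM with luteolin and 765 to 1323 in controls. Birc5 leaned the other way, at 105 to 127 CPM with luteolin and 85.4 to 111 in controls. No listed marker in the table was at 0 in all 6 libraries. The part of any of these cell types in the values of the members was not tested.

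Among the ligands, Tgfb1 was the most abundant per length, Tgfb3 came next and Tgfb2 was the least abundant in every library. Tgfb1, the ligand most widely expressed in adult tissues, stood at 89.4, 61.8 and 58.8 CPM in control replicates 1, 2 and 3 and at 73.5, 84.0 and 77.1 CPM in luteolin replicates 1, 2 and 3. The highest value belonged to a control library, and the groups overlapped. The log2 fold change of Tgfb1 was 0.16 with a standard error (SE) of 0.20 and a 95% interval from -0.31 to 0.63 (edgeR, Benjamini-Hochberg adjusted p = 0.717). Tgfb3, a ligand known from palate development, had 17.96, 9.67 and 15.9 CPM in the control group and 11.4, 12.2 and 16.0 CPM in the luteolin group. All 3 luteolin values lay within the range of the control libraries. For Tgfb3 the log2 fold change was -0.14 (SE 0.30, 95% interval -0.84 to 0.57, edgeR adjusted p = 0.851), and its sign turned under voom and without control replicate 1.

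Tgfb2, a ligand known for its part in heart, eye and skeletal development and one that needs the co-receptor betaglycan to bind TGFBR2 well, was the member with the largest fold change upward. It had 77, 148 and 130 estimated counts in the control libraries and 300, 300 and 273 in the luteolin libraries, where 1 unit may not equal 1 read pair. These gave 1.10, 2.29 and 2.02 CPM against 4.90, 3.59 and 4.27 CPM. All 3 luteolin libraries lay above all 3 controls, at levels that remained low in both groups. For Tgfb2 the log2 fold change was 1.24 (SE 0.41, 95% interval 0.26 to 2.22), a fold of 2.36, and its edgeR adjusted p was 0.169. Without control replicate 1, luteolin replicate 1 or luteolin replicate 3 its log2 fold change was 0.96, 1.12 and 1.20, and the unadjusted p no longer passed 0.05. Of the 3 ligands together, in CPM per kilobase (kb) of exon, Tgfb2 made up 0.819, 2.54 and 2.08% in the control libraries and 4.50, 2.97 and 3.55% in the luteolin libraries. Tgfb1 made up 69.8 to 79.0% in the control group and 73.7 to 79.8% in the luteolin group, and with the length of the longest transcript in place of all exons 81.8 to 87.9% and 84.4 to 88.4%.

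The genes whose values over the 6 libraries were most like those of Tgfb2 were Rab39 and Gbp6, with a mean absolute difference of 0.09 and 0.10 in centred log2 CPM. The same measure named Parp9 (0.09) and Man1a (0.09) for Tgfbr2, and 1700001C19Rik (0.05) and Gm36210 (0.06) for Smad3. These were the nearest among 14963 genes over only 6 libraries, so near matches arise for any gene.

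Promoter sequences are shown for the 3 members whose groups did not overlap, to set their start regions side by side. RefSeq's promoter table on GRCm38.p6, with 250 bases before and 50 after each start, held 6 of the 10 members (Tgfb1, Tgfb2, Tgfbr1, Tgfbr2, Smad3 and Smad6). The 3 shown are Tgfb2 at chr1:186705940-186706239, Tgfbr2 at chr9:116175314-116175613 and Smad3 at chr9:63757945-63758244, all on the minus strand and written 5′ to 3′ along the gene. Capitals mark matches to the motifs searched.

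Tgfb2: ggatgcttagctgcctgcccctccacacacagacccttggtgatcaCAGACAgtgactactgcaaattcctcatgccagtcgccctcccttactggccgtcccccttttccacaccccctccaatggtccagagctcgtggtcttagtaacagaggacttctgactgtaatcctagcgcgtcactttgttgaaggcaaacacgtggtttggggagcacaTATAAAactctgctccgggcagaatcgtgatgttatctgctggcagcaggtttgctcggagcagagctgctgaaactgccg

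Tgfbr2: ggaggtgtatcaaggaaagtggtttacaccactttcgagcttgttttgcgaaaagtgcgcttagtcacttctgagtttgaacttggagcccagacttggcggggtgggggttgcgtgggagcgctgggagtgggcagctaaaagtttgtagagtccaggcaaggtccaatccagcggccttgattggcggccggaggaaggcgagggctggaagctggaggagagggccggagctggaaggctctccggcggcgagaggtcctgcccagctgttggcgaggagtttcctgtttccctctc

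Smad3: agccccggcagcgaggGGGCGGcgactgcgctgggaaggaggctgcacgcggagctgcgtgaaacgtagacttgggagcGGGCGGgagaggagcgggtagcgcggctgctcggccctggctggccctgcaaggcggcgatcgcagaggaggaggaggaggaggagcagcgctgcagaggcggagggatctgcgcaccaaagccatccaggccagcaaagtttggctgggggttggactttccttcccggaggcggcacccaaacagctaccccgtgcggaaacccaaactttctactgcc

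The motifs were the GC box GGGCGG, the AP-1 site TGANTCA, the CRE TGACGTCA, the CAGA element CAGACA known from SMAD-bound promoters and the TATA box TATAAA, each searched on both strands, and no motif contains another. The Tgfb2 window had a TATAAA beginning 31 bases before the start and a CAGACA beginning 204 bases before it. TATAAA was present in 13.6% and CAGACA in 21% of 32851 promoters of the same length. The Smad3 window had GGGCGG at 234 and 171 bases before the start, a motif found in 35.7% of promoters, and the Tgfbr2 window held none of the 5 sets of letters. TGANTCA and TGACGTCA, found in 7.81% and 1.79% of promoters, were in none of the 3 windows. GC content was 54.3% for Tgfb2, 59% for Tgfbr2 and 67.7% for Smad3, with a median of 52.7% over all promoters, and the Smad3 window held 25 CG pairs. These matches describe letters only, and no measurement of binding was analysed here.

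Of the receptors, Tgfbr2, the type II receptor that binds the ligand first, was the member with the higher level in the luteolin group. Its values were 81.9, 86.4 and 94.7 CPM in the control libraries and 150.4, 147 and 103 CPM in the luteolin libraries. Luteolin replicates 1 and 2 stood well above the controls, while luteolin replicate 3 lay just above the highest of them. Tgfbr2 had a log2 fold change of 0.60 (SE 0.19, 95% interval 0.16 to 1.05), a fold of 1.52, with an edgeR adjusted p of 0.148. It was 0.72 without luteolin replicate 3 and 0.24 with luteolin replicate 3 alone against the 3 controls, the latter short of an unadjusted p of 0.05, as were 0.53, 0.58 and 0.51 without control replicate 1, control replicate 2 and luteolin replicate 1. Luteolin replicate 3 was also the lowest luteolin library in the summed fibroblast, neutrophil, endothelial, keratinocyte, platelet, skeletal muscle and adipocyte markers. It was not the lowest in the macrophage, T cell, B cell, hepatocyte and proliferation markers. The part of any of these cells in the Tgfbr2 values was not tested.

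Tgfbr1, the type I receptor kinase, had 36.1, 43.8 and 58.6 CPM in the control group and 52.2, 43.8 and 65.2 CPM in the luteolin group. The lowest library was a control and the highest a luteolin library, with the rest interleaved. Tgfbr1 had a log2 fold change of 0.22 (SE 0.24, 95% interval -0.35 to 0.79, edgeR adjusted p = 0.674). The libraries differed in how their values followed the GC content of the genes, with a Spearman correlation across 14635 genes from -0.52 to 0.43. With offsets for GC content and gene length, the log2 fold change of Tgfbr1 was 0.39, past an unadjusted p of 0.05, with an edgeR adjusted p of 0.143. The ratio of Tgfbr2 to Tgfbr1 in CPM per kb was 1.81, 1.57 and 1.29 in the control libraries and 2.30, 2.68 and 1.26 in the luteolin libraries, where luteolin replicate 3 had the lowest ratio of all.

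**Figure D2:**
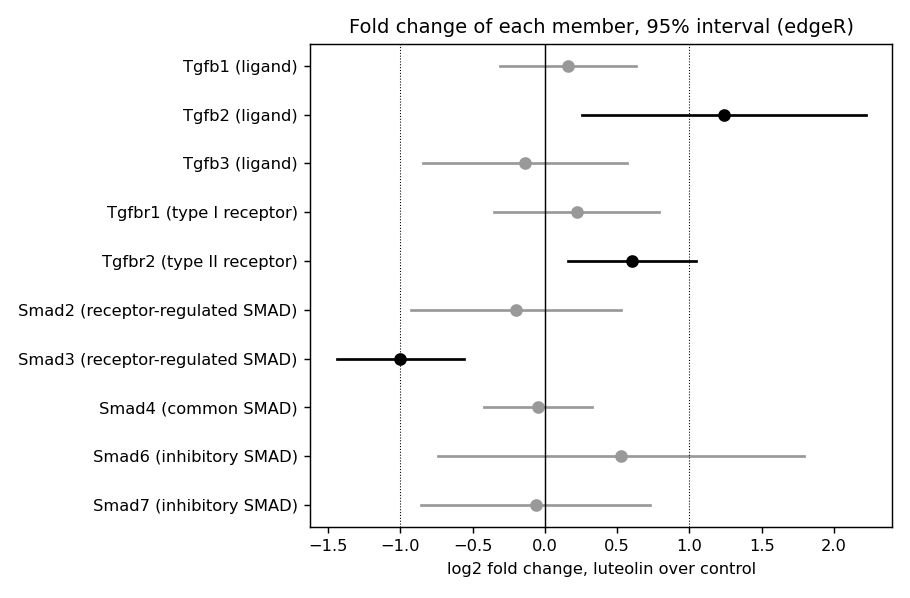
Log2 fold change of each member, luteolin over control, with the 95% interval from edgeR (black, unadjusted p under 0.05; grey, the rest; dotted lines, a 2-fold change either way). The intervals of Smad3 (-1.44 to -0.56), Tgfb2 and Tgfbr2 lie to 1 side of 0, and those of the other 7 members include 0.

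Smad3, the receptor-regulated SMAD that binds DNA directly, had the smallest p of the 10 members and ranked 285 among all genes tested. It had 268, 197 and 215 CPM in the control libraries and 110.3, 97.6 and 132 CPM in the luteolin libraries. The lowest control library was well above the highest luteolin library, so the groups were separate. The log2 fold change of Smad3 was -0.999 (SE 0.19, 95% interval -1.44 to -0.56), a fold of 0.500, with an edgeR adjusted p of 0.0559. Over 18 other ways of processing, the log2 fold change of Smad3 ran from -1.16 to -0.76, its unadjusted p was under 0.05 in 18, and its adjusted p was under 0.05 in 5. The adjusted p was 0.000335 in DESeq2, which called 12.2% of all genes at 0.05, 0.00421 in voom with sample quality weights, which called 21.4%, and 0.0334 in edgeR with GC and length offsets, which called 6.09%. With luteolin replicate 3 alone against the controls, the log2 fold change of Smad3 was -0.76, the weakest of these. The keratinocyte sum of that library, 21.2 CPM, lay next to the controls, while its fibroblast, T cell and neutrophil sums lay well above them. The part of any of these cells in the Smad3 values was not tested.

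Smad2, the other receptor-regulated SMAD of this branch, did not show that separation. Its values were 34.0, 52.0 and 39.3 CPM in the control libraries and 30.9, 25.8 and 52.5 CPM in the luteolin libraries. Luteolin replicate 3 had the highest Smad2 value of all and the other luteolin libraries the lowest. Smad2 had a log2 fold change of -0.20 (SE 0.31, 95% interval -0.93 to 0.53, edgeR adjusted p = 0.780), and it was 0.02 without luteolin replicate 2. In CPM per kb, Smad3 made up 92.6, 85.8 and 89.7% of Smad2 plus Smad3 in the control libraries and 85.0, 85.7 and 80% in the luteolin libraries. Every luteolin share was below every control share, by a small margin at luteolin replicate 2 and control replicate 2. The difference between the fold changes of Smad3 and Smad2 was not tested.

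Smad4, the common partner of the receptor-regulated SMADs, had the smallest standard error of the 10 members. Its values were 75.3, 77.4 and 65.1 CPM in the control group and 73.4, 61.2 and 76.2 CPM in the luteolin group, and the groups overlapped throughout. The log2 fold change of Smad4 was -0.05 (SE 0.16, 95% interval -0.42 to 0.32, edgeR adjusted p = 0.907), and a 2-fold change in either direction lies outside that interval. Its sign turned without luteolin replicate 2, at 0.06.

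The inhibitory SMADs were at very different levels. Smad7, which the pathway itself induces and which blocks TGFBR1, had 117, 102 and 83.3 CPM in the control libraries and 118, 51.0 and 121 CPM in the luteolin libraries. Luteolin replicate 2 was the lowest of all 6 libraries and the other 2 luteolin libraries were the highest. The log2 fold change of Smad7 was -0.06 (SE 0.33, 95% interval -0.86 to 0.73, edgeR adjusted p = 0.944), and without luteolin replicate 2 it was 0.26. Smad6, which mainly restrains the BMP branch, had 85, 77 and 42 estimated counts in the control libraries and 132, 113 and 58 in the luteolin libraries. That gave 1.22, 1.19 and 0.651 CPM against 2.16, 1.35 and 0.908 CPM, with overlap through luteolin replicate 3. Smad6 had a log2 fold change of 0.53 (SE 0.53, 95% interval -0.74 to 1.79, edgeR adjusted p = 0.641), and it was -0.15 with luteolin replicate 3 alone against the controls. The ratio of Smad3 to Smad7 in CPM per kb was 1.86, 1.58 and 2.11 in the control libraries and 0.764, 1.56 and 0.896 in the luteolin libraries. The control libraries all lay above the luteolin libraries in this ratio, and control replicate 2 and luteolin replicate 2 were nearly equal.

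Levels between genes were compared per length, as CPM per kb of all annotated exons. Smad3 led the members in every control library at 40.9 ± 6.58 CPM per kb (SD, n = 3) and was second in every luteolin library at 20.5 ± 3.19. Smad7 at 22.3 ± 3.74, Smad4 at 19.6 ± 1.78, Tgfb1 at 13.9 ± 3.35 and Tgfbr2 at 10.7 ± 0.793 CPM per kb followed in the control group, where the gaps from Smad3 to Smad7 and from Smad4 to Tgfb1 exceeded the SDs and the others did not. In the luteolin group Smad7 averaged 21.3 ± 8.71, Smad4 18.9 ± 2.15, Tgfbr2 16.3 ± 3.25 and Tgfb1 15.5 ± 1.05 CPM per kb, and neighbours in this order, Smad3 included, differed by less than the larger of their SDs. Tgfbr1 (7.07 ± 1.75 and 8.22 ± 1.65 CPM per kb in the control and luteolin groups), Smad2 (4.75 ± 1.05 and 4.14 ± 1.61) and Tgfb3 (4.29 ± 1.27 and 3.90 ± 0.720) formed the middle, and Smad2 and Tgfb3 exchanged places between libraries. Smad6 (0.318 ± 0.0994 and 0.459 ± 0.197) and Tgfb2 (0.311 ± 0.107 and 0.734 ± 0.113) were the lowest in every library. The order depends on the length used for Tgfb1, since the longest transcript put it at 27.2 ± 6.57 and 30.4 ± 2.06 CPM per kb, second in every control library and first in every luteolin library.

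**Figure D3:**
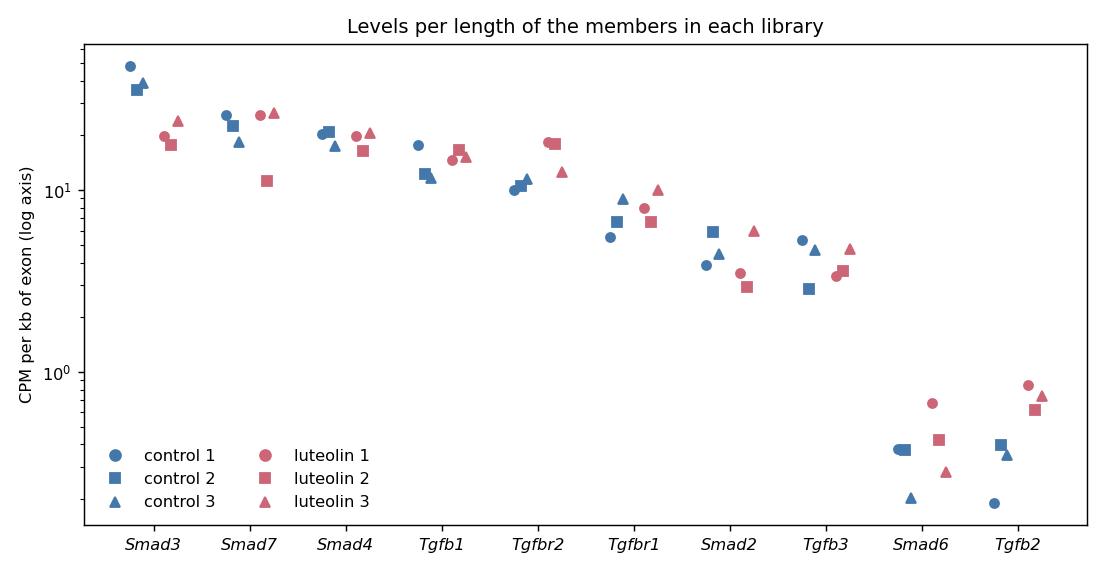
Level of each member per length in each library, in CPM per kb of exon on a log axis (blue, control; red, luteolin; marker shape, replicate), ordered by the mean over the control group. Smad3 stands above the other members in the 3 control libraries and lies among Smad7, Smad4, Tgfb1 and Tgfbr2 in the luteolin libraries, while Smad6 and Tgfb2 lie under 1 CPM per kb throughout.

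Around the core, 6 lists held 83 other genes of the pathway, of which 82 were tested. Of these, 10 rose and 0 fell at an adjusted p under 0.05 in edgeR, and 34 were higher and 2 lower at an unadjusted p under 0.05. Over all genes tested the shares were 1.34% and 0.187% at an adjusted p and 14% and 6.44% at an unadjusted p under 0.05. The groups did not overlap for 35 higher and 4 lower genes (15.9% and 12.8% of all genes), the threshold of the study took 24 that were higher (11.3% of all genes), and the median log2 fold change was 0.58 (-0.01 over all genes). The lists were chosen with earlier results of these data known, so the shares of each list, here and below, are not independent support. No test compared the lists with each other or with all genes. Without control replicate 1, 2 or 3 or luteolin replicate 1, 0 of the 82 genes had an edgeR adjusted p under 0.05, although 27, 24, 31 and 34 had an unadjusted p under 0.05 in the same fits. In these 4 fits 0 of all genes had an adjusted p under 0.05, against 228 with all libraries. Without luteolin replicate 3 the count was 6 and without luteolin replicate 2 it was 11.

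Of the TGF-β target genes, 6 of 27 tested rose at an adjusted p under 0.05, where 1.34% of all genes did. At an unadjusted p under 0.05, 17 were higher and 1 lower, beside 14% and 6.44% of all genes, and the median log2 fold change was 1.00. Tgm2, an enzyme that crosslinks matrix proteins, had 118, 82.5 and 92.8 CPM in the control libraries and 374, 421 and 361 CPM in the luteolin libraries, a log2 fold change of 1.98 (SE 0.18, edgeR adjusted p = 0.0292). Loxl2, which crosslinks collagen, rose from 22.7 ± 3.01 to 74.7 ± 6.0 CPM (n = 3 each), with a log2 fold change of 1.72 (SE 0.17). Bhlhe40, a transcription factor, rose from 80.1 ± 3.03 to 196 ± 30.9 CPM, with a log2 fold change of 1.29 (SE 0.16). Among the other calls, and named after their values were seen, were Tgfbi, a matrix protein named for its induction by TGF-β (log2 fold change 2.75, SE 0.38), and the matrix proteoglycan Bgn (1.36, SE 0.19). Tgfbi ran from 210.4 to 573 CPM in the luteolin group against 49.0 to 60.3 CPM in the control group. Many of these targets are also made by fibroblasts and macrophages, whose summed markers were higher in every luteolin library, and their part in these changes was not tested. The gene lower at an unadjusted p under 0.05, also named after its values were seen, was Cdkn2b, the cell cycle inhibitor p15, at 45.9, 42.5 and 38.1 CPM in the control libraries and 30.5, 23.3 and 25.2 CPM in the luteolin libraries (log2 fold change -0.68, SE 0.18, edgeR adjusted p = 0.109).

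Among genes of ligand latency and activation, 3 of 16 rose at an adjusted p under 0.05 (1.34% of all genes), and 8 were higher and 0 lower at an unadjusted p under 0.05 (14% and 6.44% of all genes). Fbn1, the fibrillin that anchors latent TGF-β in the matrix, rose from 89.2 ± 1.48 to 177 ± 24.0 CPM (log2 fold change 0.99, SE 0.15, edgeR adjusted p = 0.0393). Igf2r, a receptor that binds the latent complex as well as IGF2, rose from 25.9 ± 5.17 to 62.7 ± 9.46 CPM (log2 fold change 1.28, SE 0.21). Mmp14, a membrane metalloproteinase able to free latent TGF-β, rose from 59.2 ± 10.4 to 135 ± 27.3 CPM (log2 fold change 1.19, SE 0.21). The median log2 fold change of this list was 0.72, and 10 of its genes were higher and 0 lower without overlap, beside 15.9% and 12.8% of all genes. The summed fibroblast markers (565 to 1070 CPM against 247 to 330) and macrophage markers (2526 to 3847 against 1981 to 2375) were also higher with luteolin, and their part in these values was not tested.

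Of 12 co-receptors and receptor regulators 0 were called at an adjusted p under 0.05, with 5 higher and 0 lower at an unadjusted p under 0.05 (14% and 6.44% of all genes) and a median log2 fold change of 0.36. Tgfbr3, betaglycan, which presents TGF-β2 to TGFBR2, had 15.6, 10.3 and 19.9 CPM in the control libraries and 31.5, 44.2 and 21.1 CPM in the luteolin libraries (log2 fold change 1.08, SE 0.35, edgeR adjusted p = 0.161). Acvrl1, the endothelial type I receptor ALK1, had a log2 fold change of 1.01 (SE 0.29), and Eng, the endothelial co-receptor endoglin, of 1.19 (SE 0.39). Eng was highest in luteolin replicate 2, at 58.2 CPM against 25.1 and 21.0 CPM in luteolin replicates 1 and 3 and 14.5 to 16.3 CPM in the control group. The summed endothelial markers were highest in the same library, at 303 CPM, and their part in the Eng values was not tested.

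The 20 regulators of SMADs, which include corepressors, ubiquitin ligases and importins, had a median log2 fold change of -0.11, and 0 were called at an adjusted p under 0.05. At an unadjusted p under 0.05, 2 were higher and 1 lower, which is no more than the 14% and 6.44% of all genes. Pmepa1, a feedback inhibitor that holds receptor-regulated SMADs, had 10.9, 6.83 and 7.71 CPM in the control libraries and 23.9, 28.3 and 14.9 CPM in the luteolin libraries (log2 fold change 1.40, SE 0.32, edgeR adjusted p = 0.0845). Ski, a corepressor of SMAD complexes, had a log2 fold change of 0.64 (SE 0.24), and Kpnb1, an importin, of -0.32 (SE 0.13). The 3 SMADs of the BMP branch had 0 genes at an unadjusted p under 0.05, with log2 fold changes of 1.31 (SE 0.57) for Smad1, -0.24 for Smad5 and -0.39 for Smad9. Smad1 had 8.62, 30.6 and 7.15 CPM in luteolin replicates 1, 2 and 3 against 5.48 to 7.12 CPM in the control group. Without luteolin replicate 2 the log2 fold change of Smad1 was 0.36. Smad9 lay at or under 0.541 CPM in every library, and its sign turned without control replicate 2 or luteolin replicate 3.

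The products of the ID genes block basic helix-loop-helix factors, and these genes answer mainly to BMP signals. Of the 4 ID genes, 1 rose at an adjusted p under 0.05, where 1.34% of all genes did. At an unadjusted p under 0.05, 2 were higher and 0 lower (14% and 6.44% of all genes). Without overlap, 2 were higher and 0 lower (15.9% and 12.8% of all genes). Id2 had 6.91, 7.98 and 8.59 CPM in the control libraries and 25.3, 28.7 and 21.3 CPM in the luteolin libraries, a log2 fold change of 1.68 (SE 0.22, edgeR adjusted p = 0.0331). Id4 was at 0.357 to 0.695 CPM in the control group and at 0.816, 6.98 and 1.56 CPM in luteolin replicates 1, 2 and 3 (log2 fold change 2.46, SE 0.87, edgeR adjusted p = 0.183). Id1 had 7.48, 7.34 and 4.28 CPM in the control libraries and 6.69, 28.7 and 2.93 CPM in the luteolin libraries, with the highest value in replicate 2. Without luteolin replicate 2 the log2 fold change of Id1 went from 1.01 to -0.39. That library had the highest sum of every marker list except those of hepatocytes and proliferation, with keratinocyte markers at 9076 CPM. The part of these cells, or of BMP signals, in the values of Id1, Id2 and Id4 was not tested.

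**Figure D4:**
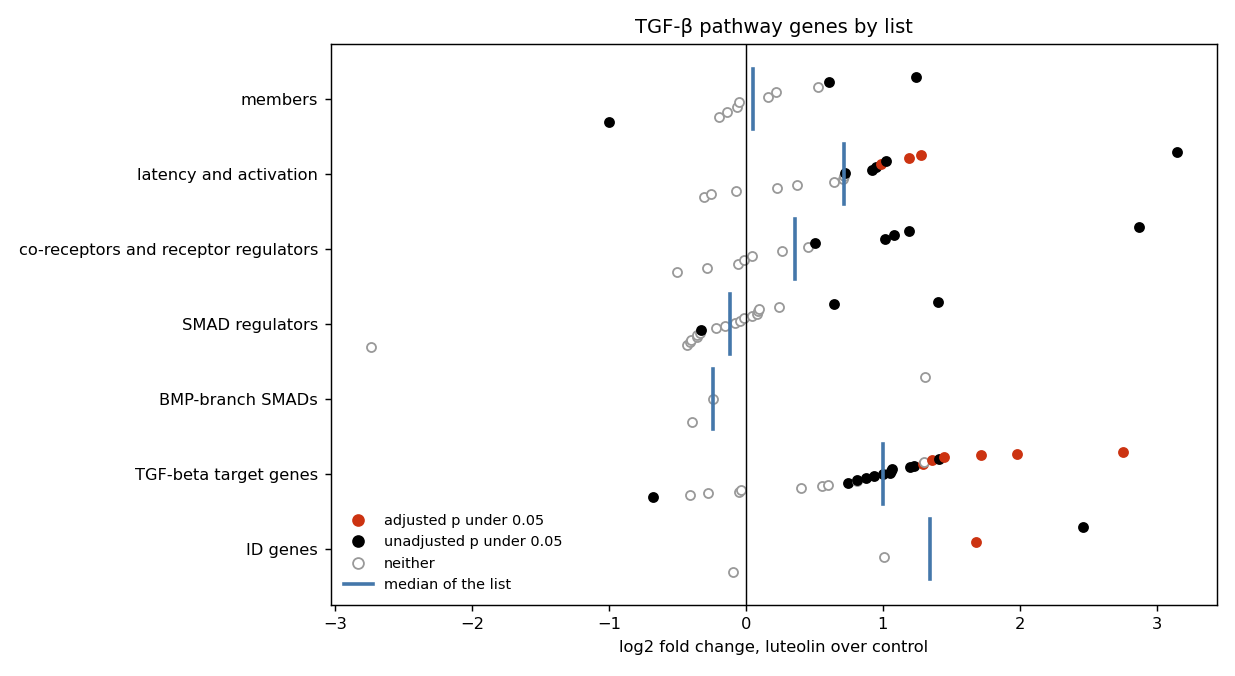
Log2 fold change, luteolin over control, of every tested gene of the core and of the 6 pathway lists (red, edgeR adjusted p under 0.05; black, unadjusted p under 0.05; open, neither; blue bar, median of the list). The core is centred near 0 with a median of 0.06, and the 10 red genes lie to the right of 0 in the lists of TGF-β target genes, of latency and activation, and of ID genes. The lists were chosen with earlier results of these data known.

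**Figure D5:**
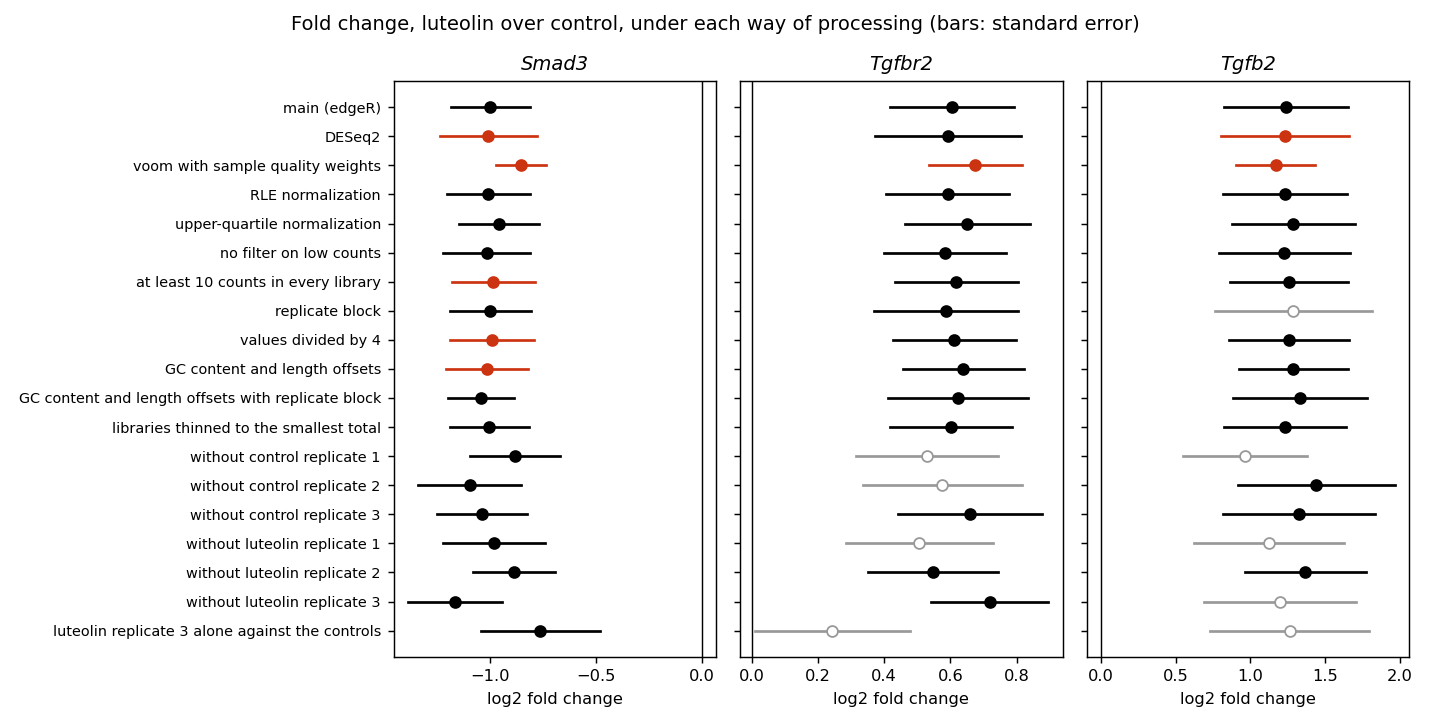
Log2 fold change, luteolin over control, of Smad3, Tgfbr2 and Tgfb2 as reported and under 18 other ways of processing, with bars for the SE (red, adjusted p under 0.05; black, unadjusted p under 0.05; open grey, neither). Smad3 stays to the left of 0 and the other 2 genes to the right in all of them, and Tgfbr2 comes closest to 0, at 0.24, with luteolin replicate 3 alone against the controls.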

How the data were processed

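RNA-seq of H22 tumours of 3 control and 3 luteolin libraries was analysed. The table that the authors deposited gives a whole number for each gene and library, unscaled between libraries. Since 44.8% of its values between 1 and 40 are multiples of 4, they were taken as estimated counts per gene as deposited by the authors, whose counting settings are not given in the sources used here, and 1 unit may not equal 1 read pair. The submitters' processing notes name bcl2fastq 2.0, HISAT2, StringTie and DESeq2 and the builds rn6 and mm39, without their roles. The paper names a TruSeq kit and Trizol, and the labels name a SMARTer kit and an RNeasy kit.

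Counts were fitted in R 4.3.3 with edgeR 4.0.16 (TMM, filterByExpr, quasi-likelihood test, no covariates, 14963 genes, two-sided, Benjamini-Hochberg adjustment). CPM are scaled to TMM library totals, and gene lengths came from GENCODE M21 on GRCm38. The libraries held 61081637 to 80442954 estimated counts each, with 3 replicates per group, and what limited the precision was not tested. The members and lists were chosen with earlier results of these data known. Besides the members, the genes named are the 3 with the smallest p in each pathway list and the 2 genes nearest to each member at an unadjusted p under 0.05. Of the cell type markers with the highest mean CPM, only some are named. Exceptions are marked. Hnf4a, Gpc3, Birc5 and the keratinocyte genes at 0 in the control group were named after their values were seen. The values of 1 target gene are not reported here.

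Alternatives were DESeq2 1.42.0, voom of limma 3.58.1 with sample quality weights, RLE and upper-quartile normalization, no filter, at least 10 counts in every library, division of all values by 4, offsets for GC content and length, thinned libraries, a block for the replicate number, and leaving out each library. The comparison of luteolin replicate 3 alone and the longest transcript as gene length were chosen after seeing the data. The fit was run on simulated data with known changes, larger than those of the members and without GC bias, as a check of the code only.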

Additional observations from a re-analysis of the deposited data

How the results depend on the processing

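The count of members at an adjusted p under 0.05 went from 0 to 2 in DESeq2, 3 in voom, and 1 each with at least 10 counts in every library, with values divided by 4 and with GC and length offsets. The count at an unadjusted p under 0.05 was 3. It was 1 to 3 when 1 library was left out, with 1 without control replicate 1 or luteolin replicate 1, 1 with luteolin replicate 3 alone against the controls, and 4 with GC and length offsets, where Tgfbr1 was added. At the threshold of the study the count of 1 became 2 in DESeq2, with RLE normalization, no filter, GC and length offsets (with or without the block) and thinned libraries, where Smad3 joined Tgfb2 by passing the 2-fold limit, and 0 with luteolin replicate 3 alone. It ranged from 0 to 2 when 1 library was left out. Members without overlap numbered 3, and 3 to 5 when 1 library was left out. Pathway genes at an adjusted p under 0.05 went from 10 to 27 in DESeq2, 37 in voom, 20 with GC and length offsets, 0 with luteolin replicate 3 alone, and 0 to 11 when 1 library was left out, while the 36 at an unadjusted p under 0.05 became 20 with luteolin replicate 3 alone. Over all genes, the calls at an adjusted p under 0.05 went from 228 to 1958 in DESeq2, 3197 in voom and 892 with GC and length offsets. They were 392 with at least 10 counts in every library and 373 with values divided by 4. The counts of members and pathway genes in these fits thus rose together with those of all genes. The causes were not tested.

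Some fold changes turned their sign, most of them near 0 but also those of Id1 and Smad6. In voom these were Tgfb3 (0.17), Smad7 (0.17) and Id1 (-0.20). With luteolin replicate 3 alone they were Tgfb3 (0.15), Smad2 (0.35), Smad4 (0.083), Smad6 (-0.15), Smad7 (0.27) and Id1 (-1.11). With 1 library left out the log2 fold change ranged from -0.37 to 0.029 for Tgfb3, -0.60 to 0.018 for Smad2, -0.15 to 0.060 for Smad4, -0.28 to 0.26 for Smad7, -1.70 to 0.12 for Smad9 and -0.39 to 1.39 for Id1. Smad3, Tgfb2, Tgfbr2, Tgfb1 and Tgfbr1 kept their direction in all 18 alternatives.

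Samples with the same replicate number did not deviate together (correlations of -0.20, -0.09 and 0.06), so the numbers were not taken as pairs. With the replicate number as a block, 0 members had an adjusted p under 0.05, 2 had an unadjusted p under 0.05, 0 met the threshold of the study, and 3 pathway genes had an adjusted p under 0.05. In that block fit the log2 fold change of Smad3 was -0.998 with an adjusted p of 0.115.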
